A study of Homo sapiens with 6 samples.

Results

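Aminoacyl-tRNA synthetases join each amino acid to its tRNA and so supply the ribosome with substrate. Most animal cells keep separate nuclear genes for the enzymes of the cytosol and for those imported into mitochondria. The 35 synthetase genes described here, 19 cytosolic and 16 mitochondrial of 25420 genes in the annotation, were chosen by name, by matching their symbols to the Entrez identifiers of the deposited tables. MOLM-13, an established human acute myeloid leukaemia cell line, was kept for 2 h in 10 µM C646, an inhibitor of the histone acetyltransferases CBP and p300, or in the solvent DMSO. Cells of both groups received 100 µM 4-thiouridine (4sU) for the last 1 h, and 3 libraries per group were made by SLAM-seq. The sequencer reads C for T wherever 4sU entered a new transcript. Reads that carry such a conversion, called T > C reads, therefore count newly synthesized mRNA, and all reads count total mRNA. The question was which of these genes changed in new and in total mRNA under C646.

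In the cytosol, several synthetases are held together by scaffold proteins in the multi-synthetase complex, and phenylalanyl-tRNA synthetase is built of the products of FARSA and FARSB. EPRS1 charges both glutamate and proline tRNAs, and KARS1 and GARS1 serve mitochondria as well as the cytosol. Many cytosolic synthetase genes are known targets of ATF4, the transcription factor of the integrated stress response, which binds amino acid response elements in promoters.

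Reads on 3′ UTRs numbered between 7252597 and 10225448 per library, and T > C reads between 477824 and 833410. The 3′ UTRs held between 49.7% and 51.6% of the filtered reads of the DMSO libraries and between 56.3% and 62.0% of those of the C646 libraries, with the highest share in C646 replicate 3, and the part of this shift in the results was not tested beyond the scaling by all filtered reads. The share of T > C reads was 8.79% ± 0.0637 (SD, n = 3) under DMSO, against 6.48% ± 0.203 (SD, n = 3) under C646. No library without 4sU was analysed here, so the part of T > C reads that comes from sequencing errors was not measured. The depth per gene was limited, since the tested cytosolic synthetase genes had a median of 76 T > C reads in a library and the mitochondrial ones 19. PCR copies of a molecule are counted more than 1 time, and the p-values measure the spread between samples that the labels do not describe as separate cultures. All 11 myeloid leukaemia markers had at least 10 reads in each library, while 2 of 13 markers of other cell types did and 4 were at 0 throughout. The summed level of those 13 was between 151 and 168 CPM under DMSO and between 102 and 137 CPM under C646, most of it from PECAM1, with a mean of 149.8 and 108 CPM. COL1A1, a fibroblast collagen with 9, 1 and 1 T > C reads in DMSO and 27, 24 and 27 in C646, was called higher in C646 in T > C reads (log2 fold change 2.75) and in all reads (2.02).

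The promoter stretches with the core of the amino acid response element are shown here, since this element sets cytosolic genes of the family apart in their known regulation. RefSeq promoters (GRCh38.p14, 250 bases before to 50 bases after the start site) were found for 30 members, and VARS1, VARS2, LARS1, AARS2 and YARS1 were not among them. The letters TGATGNAA, searched on both strands, lay in 7 of 16 cytosolic promoters, in 1 of 14 mitochondrial promoters and in the promoters of 4.46% of all 27305 genes with a window. The 7 cytosolic stretches, with the matching letters in capitals and read 5′ to 3′ on the strand that carries them, were:
AARS1 (chr16:70289675-70289704, plus strand): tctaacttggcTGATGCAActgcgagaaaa
CARS1 (chr11:3057407-3057436, plus strand): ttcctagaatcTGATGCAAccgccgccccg
GARS1 (chr7:30594834-30594863, minus strand): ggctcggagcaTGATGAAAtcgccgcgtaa
IARS1 (chr9:92293692-92293721, plus strand): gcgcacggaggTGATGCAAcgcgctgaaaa
MARS1 (chr12:57488053-57488082, minus strand): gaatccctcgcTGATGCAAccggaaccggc
NARS1 (chr18:57621804-57621833, minus strand): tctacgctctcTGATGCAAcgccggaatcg
TARS1 (chr5:33440956-33440985, minus strand): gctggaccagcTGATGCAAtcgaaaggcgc

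Of these 7 stretches, 6 carried TGATGCAA, and GARS1 carried TGATGAAA. All 7 genes were among the 10 cytosolic genes with a promoter window on a list of ATF4 targets, and none of the other 6 cytosolic promoters held the letters. Among mitochondrial genes, the core was matched by YARS2, which encodes tyrosyl-tRNA synthetase of the mitochondrion. The letters GCATGCGC, 8 of those in the longer palindromic site of the factor NRF1 and searched on both strands, were in 0 of 16 cytosolic promoters, 2 of 14 mitochondrial promoters and those of 3.68% of all genes. NRF1 is known for activating nuclear genes of mitochondrial proteins. The mitochondrial matches are shown because MARS2 had the lowest fold change of T > C reads of the tested members. In MARS2 the letters were matched on both strands at overlapping places, of which the plus strand is printed:
MARS2, NRF1 letters (chr2:197705333-197705362, plus strand): gacccggctgcGCATGCGCctctcacacgt
YARS2, NRF1 letters (chr12:32755959-32755988, minus strand): aaccgtctcggGCATGCGCagaaaaacact
YARS2, TGATGNAA (chr12:32756076-32756105, minus strand): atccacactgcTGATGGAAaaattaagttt

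The ETS core CCGGAAGT was in 5 of 16 cytosolic promoters, 3 of 14 mitochondrial promoters and those of 4.95% of all genes. HARS1 and HARS2, the cytosolic and mitochondrial histidyl-tRNA synthetases, lie head to head on chromosome 5 with start sites 85 bases apart, so that their windows share sequence and matches. A match of letters is a description of the window and does not show that a factor binds there.

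Not every member could be tested. VARS1, SARS2 and VARS2 had 0 reads in all 6 libraries, so that for each of them no more than the limit of 3 counts per library can be stated. VARS1 and VARS2 are also annotated on alternative contigs of chromosome 6, and 133 of the 186 genes annotated there (71.5%) were at 0, against 38.0% of all genes. Their part in these zeros was not tested. CARS1, HARS1 and NARS2 had too few T > C reads to pass the filter on low counts. HARS1 had 15, 10 and 8 T > C reads under DMSO and 2, 1 and 4 under C646, and NARS2 had 10, 19 and 4 in DMSO and 5, 0 and 0 in C646. CARS1 had 0, 2 and 11 T > C reads in DMSO and 2, 6 and 6 in C646, nearly all on an alternative contig of chromosome 11. This left 29 members tested for T > C reads (16 cytosolic, 13 mitochondrial) and 32 for all reads.

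Reads were counted on the 3′ UTR of each gene, given below with its GRCh38 position as annotated in the deposited tables (for genes with several entries, the one with the most reads). In T > C reads, 10 of the 29 tested members fell in C646-treated cells and none rose. Of all 7722 genes tested, 33.0% were called lower and 2.97% higher, so that the members' share lay near the background. The 2 classes had different counts, with 3 of 16 cytosolic and 7 of 13 mitochondrial genes called lower, a difference that was not itself tested. A gene was called where edgeR's quasi-likelihood p, adjusted after Benjamini and Hochberg, did not exceed 0.01 and the log2 fold change was 1 or more in size. T > C reads were scaled to all reads of their library. The median log2 fold change was −0.48 over the cytosolic genes, −1.23 over the mitochondrial genes and −0.83 over all genes tested. In bulk libraries, fewer expressing cells and less RNA per cell cannot be told apart.

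These directions depend on the scaling. When T > C reads were scaled to themselves by TMM, the median of all genes shifted by 0.84 on the log2 scale, and the cytosolic median turned to 0.36 while the mitochondrial median was −0.39. With that scaling 2 members were called lower (FARSB and MARS2) and 3 higher (GARS1, MARS1 and TARS1), where 7.80% of all genes were called lower and 9.14% higher. Relative to the median of all genes, a place that a change of scaling hardly touches by construction, 11 of 16 cytosolic genes lay above and 8 of 13 mitochondrial genes below.

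**Figure D1:**
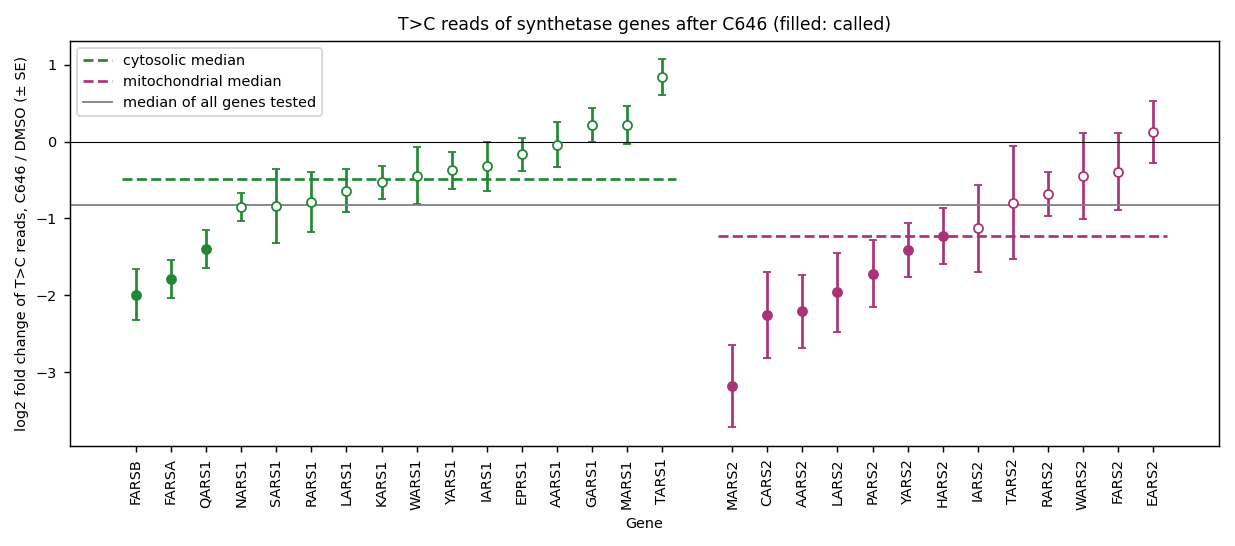
Log2 fold change of T > C reads (y axis, C646 over DMSO, scaled to all reads, bars ± SE) for the 29 tested synthetase genes (x axis), with filled points for called genes, dashed lines for the median of each class and a grey line for that of all genes tested. The cytosolic median of −0.48 lies above the grey line at −0.83 and the mitochondrial median of −1.23 below it, and scaling T > C reads to themselves turns the cytosolic median to 0.36.

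Both genes of cytosolic phenylalanyl-tRNA synthetase fell. T > C reads of FARSA, the catalytic subunit (chr19:12922470-12922747, minus strand), were 17.9, 21.9 and 14.1 CPM (counts per 1000000 TMM-scaled reads on 3′ UTRs) in the DMSO libraries and 4.50, 6.62 and 4.56 CPM in the C646 libraries. The 3 C646 values lay below the 3 DMSO values, which was so for 17 of the 29 tested members and for 55.8% of all genes tested. The fold change of FARSA was −1.78 on the log2 scale (SE 0.25, edgeR adjusted p = 8.9e-07). FARSB, the other subunit (chr2:222571443-222572022, minus strand), had 11.2, 10.3 and 10.5 CPM in DMSO and 3.44, 3.55 and 1.19 CPM in C646, again without overlap. Its log2 fold change was −1.99 (SE 0.33, edgeR adjusted p = 1.12e-05).

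The third cytosolic gene that fell was QARS1, the glutaminyl-tRNA synthetase of the multi-synthetase complex (chr3:49095932-49096079, minus strand). It had 14.9, 19.96 and 15.5 CPM of T > C reads in DMSO and 6.61, 7.97 and 4.56 CPM in C646, so that each C646 library was below each DMSO library. The log2 fold change was −1.40 (SE 0.25, edgeR adjusted p = 2.56e-05). Of the 7 tested enzymes of the complex QARS1 was the only one called, against 2 of 9 outside it, with medians of −0.53 and −0.44. Of all genes tested 33.0% were called lower, with a median of −0.83. The calls of FARSA, FARSB and QARS1 held whichever library was left out, while that of QARS1 was lost with glmTreat (adjusted p = 0.0717) and with T > C reads scaled to themselves (edgeR adjusted p = 0.0881), where FARSA, at −0.94, was under the fold threshold.

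The other cytosolic genes lay closer to 0 and passed no call. NARS1, asparaginyl-tRNA synthetase, had 29.4, 31.2 and 28.8 CPM in DMSO and 16.7, 17.5 and 15.4 CPM in C646. Its groups were well apart, and the log2 fold change of −0.85 (SE 0.18, edgeR adjusted p = 0.000293) passed the p-value and not the fold threshold. TARS1, threonyl-tRNA synthetase (chr5:33467709-33468091, plus strand), had 8.96, 7.76 and 9.43 CPM in DMSO and 10.98, 18.1 and 17.5 CPM in C646. It was the only tested member with all C646 values above all DMSO values, as were 6.46% of all genes tested, and its log2 fold change was 0.83 (SE 0.24, edgeR adjusted p = 0.00372). Without C646 replicate 1 the fold change of TARS1 was 1.03 and passed both thresholds (edgeR adjusted p = 0.000524).

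GARS1 (glycyl-tRNA synthetase) and MARS1 (methionyl-tRNA synthetase) both had a log2 fold change of 0.22 with overlapping groups, and AARS1 (alanyl-tRNA synthetase) had one of −0.04. GARS1 had 14.6, 17.6 and 14.1 CPM in DMSO and 12.03, 19.4 and 22.2 CPM in C646. For the remaining 8 cytosolic genes that were tested the log2 fold changes ran from −0.84 (SARS1, SE 0.48) to −0.17 (EPRS1, SE 0.21), and none had an adjusted p of 0.01 or less. Grouped by the list of ATF4 targets, 0 of 11 tested cytosolic genes on the list and 3 of 5 off it were called lower, with medians of −0.32 and −1.40, beside 33.0% of all genes tested called lower. Grouped by the promoter letters, the 6 tested genes with TGATGNAA had a median of 0.09 and no call, and the 8 tested genes with a window lacking it had a median of −0.82, close to that of all genes, and 3 calls. The lists were drawn up with earlier results of these data known, and the 2 groupings overlap in their genes.

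In the mitochondrial class, MARS2, mitochondrial methionyl-tRNA synthetase (chr2:197707188-197708390, plus strand), had the lowest fold change. It had 3.69, 5.96 and 5.66 CPM of T > C reads in DMSO and 0.265, 1.10 and 0.298 CPM in C646, with 2, 9 and 3 T > C reads behind the C646 values. The groups did not overlap, and the log2 fold change was −3.18 (SE 0.53, edgeR adjusted p = 1.29e-05). AARS2, for alanine (chr6:44298726-44300546, minus strand), had 3.27, 6.52 and 4.31 CPM in DMSO and 0.529, 1.35 and 1.09 CPM in C646 (log2 fold change −2.21, edgeR adjusted p = 0.000304). CARS2, for cysteine (chr13:110641410-110641536, minus strand), had 3.69, 2.50 and 3.64 CPM in DMSO and 0.265, 0.490 and 1.19 CPM in C646 (log2 fold change −2.25, edgeR adjusted p = 0.00116). In both, the highest C646 library was below the lowest DMSO library.

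LARS2, PARS2, YARS2 and HARS2, the mitochondrial enzymes for leucine, proline, tyrosine and histidine, completed the 7 calls. Their 3′ UTRs lie at chr3:45547531-45548836 (plus strand), chr1:54756898-54757733 (minus strand), chr12:32746544-32747203 (minus strand) and chr5:140698553-140699321 (plus strand). LARS2 had 2.32, 3.47 and 4.71 CPM in DMSO and 0.529, 1.10 and 0.992 CPM in C646 (log2 fold change −1.96, edgeR adjusted p = 0.00208). PARS2 had 4.32, 5.13 and 4.31 CPM in DMSO and 1.59, 1.84 and 0.794 CPM in C646 (log2 fold change −1.72, edgeR adjusted p = 0.00161). YARS2 had 6.43, 6.52 and 7.001 CPM in DMSO and 1.45, 3.06 and 2.88 CPM in C646 (log2 fold change −1.41, edgeR adjusted p = 0.0012). In all 3 genes the groups were separate, with the DMSO libraries of YARS2 close together. HARS2 had 5.90, 6.93 and 4.71 CPM in DMSO and 3.44, 2.21 and 1.88 CPM in C646 (log2 fold change −1.23, edgeR adjusted p = 0.0052).

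The HARS2 call depended on single libraries. It was lost when scaled by all filtered reads, and also without DMSO replicate 1 (adjusted p = 0.0235 in edgeR), DMSO replicate 2 (0.0356), C646 replicate 2 (0.0204) or C646 replicate 3 (0.0183), with log2 fold changes from −1.22 to −1.05. The LARS2 call was lost without DMSO replicate 3 (log2 fold change −1.68, edgeR adjusted p = 0.0262), and that of PARS2 without DMSO replicate 2 (−1.63, edgeR adjusted p = 0.0117). Of the 6 mitochondrial genes without a call, EARS2 for glutamate had a log2 fold change of 0.12 (SE 0.40) and IARS2 for isoleucine one of −1.13 (SE 0.57), and the others lay in between. None of these 6 passed the p-value threshold, at a median depth of 19 T > C reads in a library for the class.

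**Figure D2:**
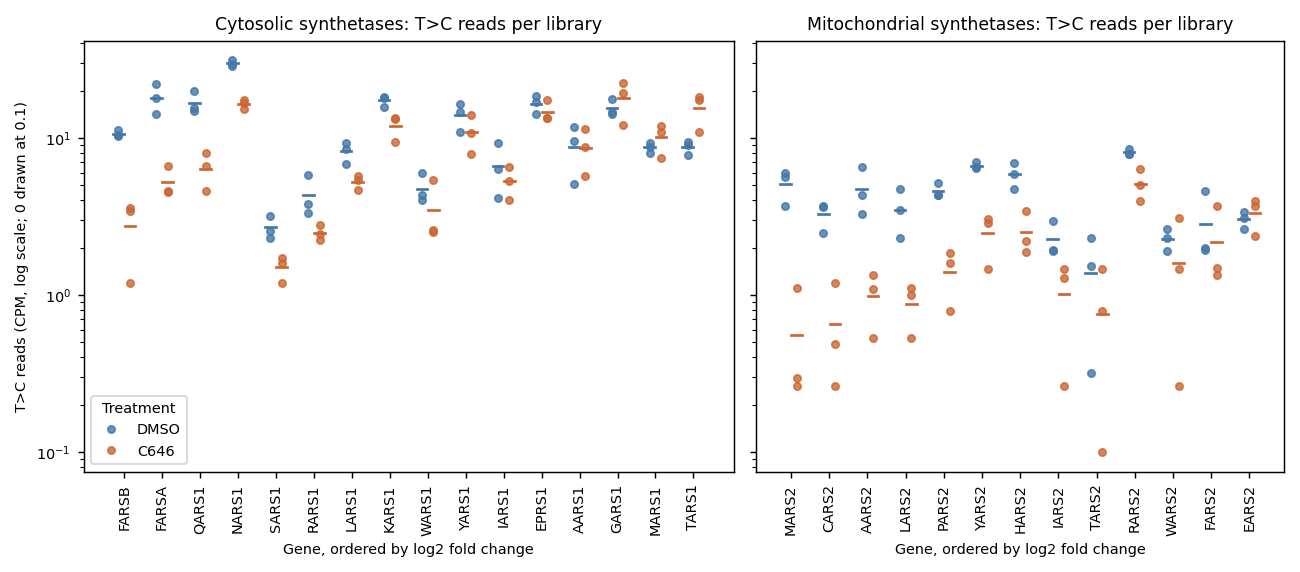
T > C reads of each tested member in CPM (y axis, log scale) in the 3 DMSO and 3 C646 libraries, with a bar at each group mean and genes ordered along the x axis by log2 fold change, cytosolic on the left and mitochondrial on the right. The C646 points of MARS2 (0.265 to 1.10 CPM) lie below its DMSO points (3.69 to 5.96 CPM), while those of TARS1 lie above, and a value of 0 (TARS2) is drawn at 0.1.

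Total mRNA gave fewer calls. Of 32 members tested for all reads, 0 were called lower and 2 higher, against 1.88% lower and 5.89% higher of 10851 genes. The medians were −0.25 for cytosolic and −0.21 for mitochondrial genes, where the median of all genes was close to 0. Scaled by all filtered reads they were −0.046 and −0.0061, and the median of all genes was 0.20. At any fold change, 3 members passed an adjusted p of 0.01 in edgeR downward and 3 upward, as did 6.28% and 9.81% of all genes. The C646 values of 15 of the 32 members lay wholly below the DMSO values and those of 4 wholly above, which was so for 23.1% and 24.5% of all genes. C646 replicate 3 held the lowest of the 6 values in 19 of the 32 members and in 26.5% of all genes tested, and its part in the lower values was not tested.

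The members that rose in total mRNA both charge threonine. TARS1 had 925, 482 and 782 reads in DMSO and 1261, 1546 and 2686 in C646, with every C646 library above every DMSO library. Its log2 fold change of all reads was 1.21 (SE 0.19, edgeR adjusted p = 0.000535), and 0.99 without C646 replicate 3, which is under the fold threshold. TARS2, the mitochondrial enzyme (chr1:150507065-150507609, plus strand), had 104, 70 and 122 reads in DMSO and 182, 166 and 313 in C646, likewise without overlap. Its log2 fold change was 1.03 (SE 0.23, edgeR adjusted p = 0.00462), and the call was lost without DMSO replicate 1 (0.95), DMSO replicate 2 (0.89) or C646 replicate 3 (0.85). T > C reads of TARS2 had a log2 fold change of −0.79 with an SE of 0.74, which did not pass and turned to 0.03 with T > C reads scaled to themselves.

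IARS2, for isoleucine, had 297, 125 and 184 reads in DMSO and 268, 345 and 540 in C646, which gave separate groups in CPM and a log2 fold change of 0.83 (SE 0.22, edgeR adjusted p = 0.00967), under the fold threshold. Its T > C reads were 18, 14 and 22 under DMSO and 2, 12 and 13 under C646. Scaled to all reads, its T > C reads were lower in each C646 library than in each DMSO library, and its total reads were higher. KARS1 had the same order, with 343, 360 and 365 CPM of all reads in DMSO and 383, 454 and 463 in C646, beside 18.0, 18.2 and 15.8 CPM of T > C reads in DMSO and 9.39, 13.4 and 13.2 in C646, but it was called in neither.

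Among the members lower in total mRNA, CARS2 had a log2 fold change of −0.90 (edgeR adjusted p = 0.00209), SARS1, the cytosolic seryl-tRNA synthetase, one of −0.86 (0.00478) and FARSB one of −0.70 (0.00294). CARS2 passed both thresholds without C646 replicate 1 (−1.16). MARS2 had 84, 89 and 81 reads in DMSO and 43, 51 and 37 in C646. Its log2 fold change of −1.04 had an edgeR adjusted p of 0.0118, just outside the threshold. With a replicate block, with the DESeq2 test or without a filter, MARS2 was called lower. FARSA, in contrast, had a log2 fold change of −0.00 (SE 0.15) in all reads beside its fall in T > C reads.

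**Figure D3:**
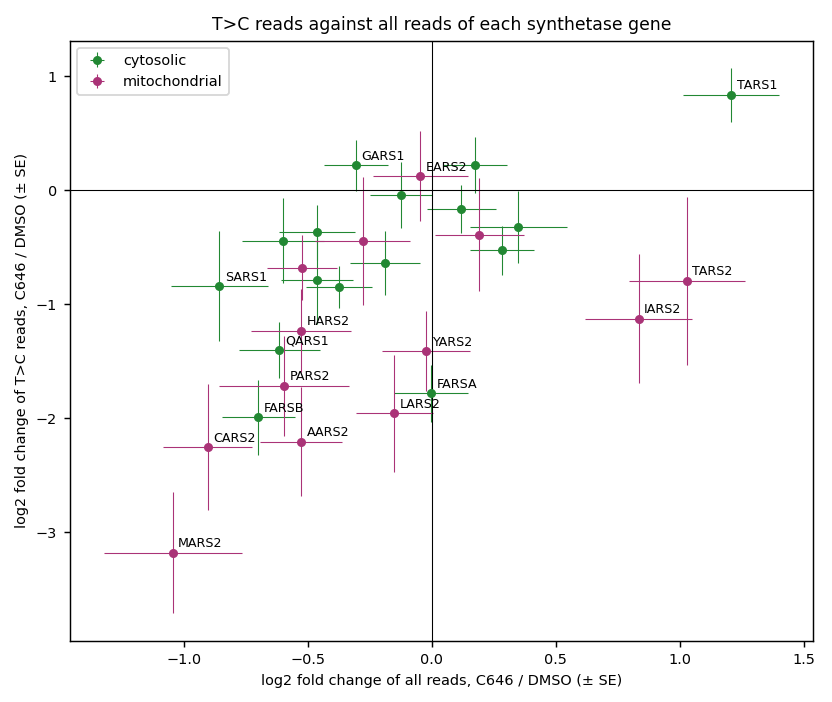
Log2 fold change of all reads (x axis) against that of T > C reads (y axis) for the 29 members tested in both, with bars of 1 SE. TARS1 lies at 1.21 and 0.83, MARS2 at −1.04 and −3.18, and TARS2 and IARS2 lie to the right of 0 on the x axis and below 0 on the y axis, while scaling T > C reads to themselves shifts the median of all genes up by 0.84 and TARS2 to 0.03.

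The labelled share of a gene's own reads does not depend on the scaling between libraries. In a model of T > C against other reads with a factor for each library, 7 of 29 members had lower odds of a T > C read in C646 and 0 higher, against 38.3% and 0.79% of all genes tested. The genes were FARSA (log2 odds ratio −1.85, edgeR adjusted p = 7.39e-08) and FARSB (−1.39) among 16 cytosolic genes, and AARS2 (−1.72), IARS2 (−2.11), LARS2 (−1.89), MARS2 (−2.93) and YARS2 (−1.71) among 13 mitochondrial genes. The median log2 odds ratio was −0.38 for cytosolic, −1.59 for mitochondrial and −1.004 for all genes tested. AARS2 and YARS2 lost this call without DMSO replicate 2.

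Conversions per covered T allow genes to be compared with each other. In DMSO, the cytosolic synthetase genes had a median of 0.406 T > C conversions per 100 covered T, the mitochondrial ones 0.674 and all genes tested 0.913. None of the 16 cytosolic genes was above the median of all genes, and 5 of the 13 mitochondrial genes were. In C646 the medians were 0.270, 0.343 and 0.417, and 5 cytosolic and 4 mitochondrial genes were above that of all genes. The highest rates in DMSO belonged to mitochondrial genes, with 3.73 ± 0.542 (SD, n = 3) for MARS2, 2.94 ± 0.408 for PARS2 and 2.61 ± 0.682 for YARS2.

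In C646 the rate of MARS2 was 0.311, that of PARS2 1.46 and that of YARS2 1.08. As a share of reads, T > C reads of MARS2 made up 47.3% ± 5.17 (SD, n = 3) in DMSO and 10.1% ± 6.73 in C646, and those of PARS2 39.8% ± 5.19 and 17.7% ± 4.49. The lowest shares of tested members in DMSO were 2.76% ± 0.735 for CARS2 and 3.20% ± 0.330 for WARS1, tryptophanyl-tRNA synthetase. The highest share of the cytosolic genes was that of EPRS1 in DMSO, at 15.2% ± 2.86 (12.3% ± 1.02 in C646), and that of GARS1 in C646, at 13.6% ± 4.69 (9.47% ± 1.78 in DMSO).

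**Figure D4:**
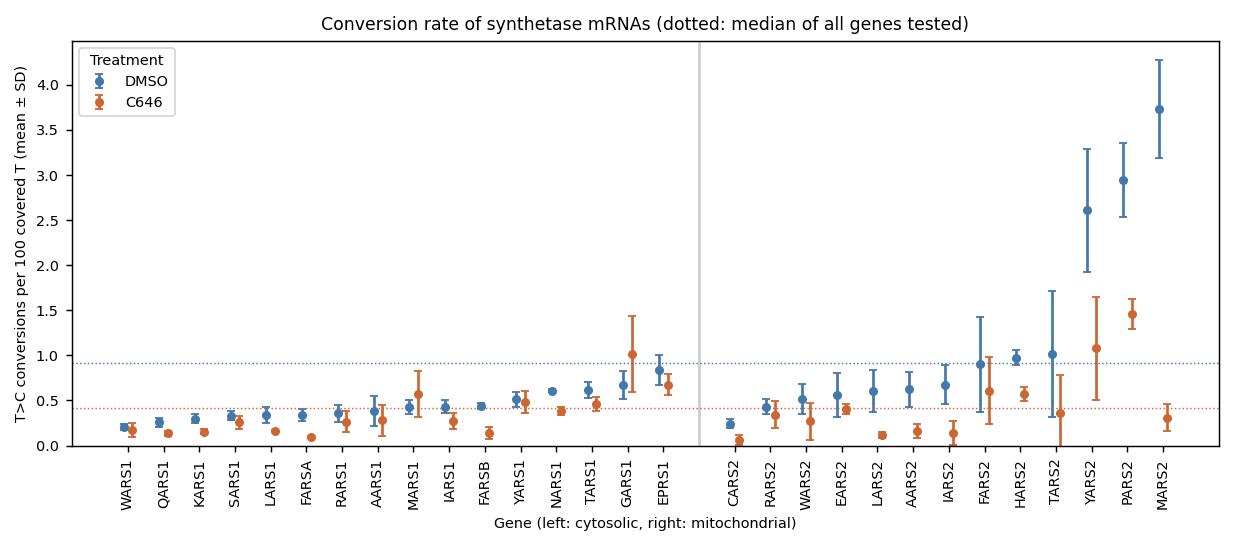
T > C conversions per 100 covered T (y axis, mean ± SD of 3 libraries, cut at 0) in DMSO and C646 for the 29 tested members (x axis), with dotted lines at the medians of all genes tested. MARS2, PARS2 and YARS2 stand at 3.73, 2.94 and 2.61 in DMSO, and every cytosolic gene lies below the DMSO line at 0.913.

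A ratio of the 2 classes within each library is free of scaling between libraries. The 19 cytosolic genes together had 1851, 1509 and 1302 T > C reads in DMSO and 992, 1225 and 1380 in C646, and the 16 mitochondrial genes had 462, 420 and 431 in DMSO and 176, 209 and 223 in C646. The log2 ratio of cytosolic to mitochondrial T > C reads was 2.00, 1.85 and 1.59 in the DMSO libraries and 2.49, 2.55 and 2.63 in the C646 libraries. The C646 ratios all lay above the DMSO ratios, with a difference of the means of 0.74. For all reads the ratio was 2.62 ± 0.0361 (SD, n = 3) in DMSO and 2.76 ± 0.0625 in C646, a difference of 0.15. With means of log2 values in place of sums, the difference was larger for T > C reads and smaller for all reads.

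The same ratio was taken for 12 combinations of a cytosolic and a mitochondrial gene of the same amino acid that were both tested. With 3 libraries per group no single ratio can reach a two-sided exact p below 0.1, so the values are given without a test. The C646 ratios lay above all DMSO ratios in 5 of 12, for methionine (difference of 3.50 on the log2 scale), alanine (2.21), proline (1.57), leucine (1.29) and tyrosine (1.10). In the other 7 the groups overlapped. In all reads the same 12 ratios were higher in C646 in 3, lower in 3 and overlapping in 6, with a median difference of 0.0078, and that of tyrosine was among the lower ones (−0.46). Phenylalanine had differences of −1.36 for FARSA and −1.68 for FARSB over FARS2, with FARS2 at 19, 14 and 34 T > C reads in DMSO and 28, 11 and 15 in C646. For arginine the difference was −0.05, with part of the T > C reads of RARS2 outside its 3′ UTR entry with the most reads.

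**Figure D5:**
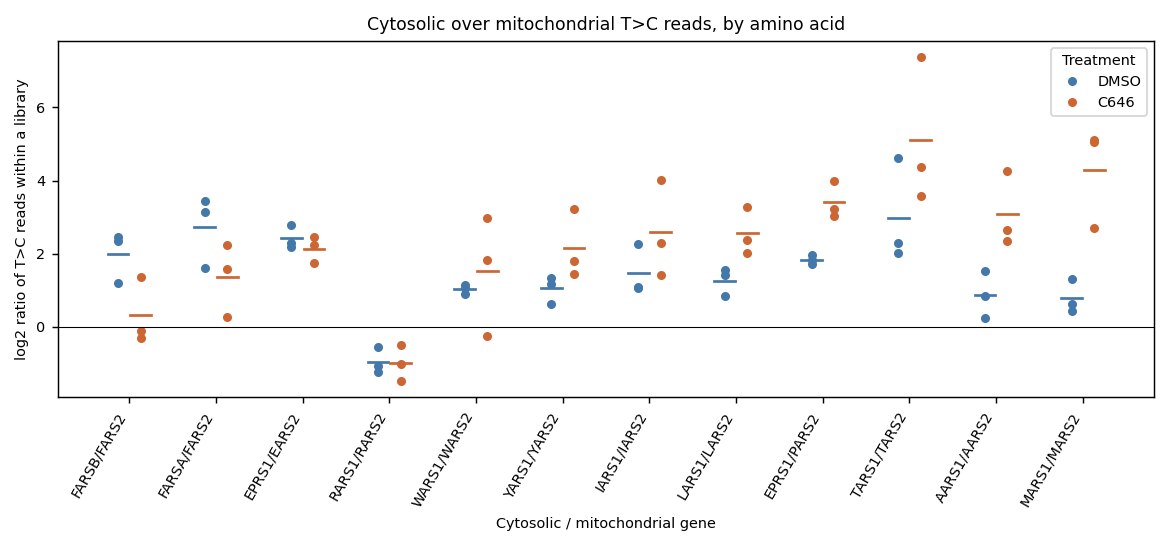
Log2 ratio of T > C reads of the cytosolic over the mitochondrial gene of the same amino acid within each library (y axis; 0.5 was added to each count) for 12 gene combinations (x axis), with points for the 3 libraries of a group and a bar at the mean. MARS1 over MARS2 has a mean of 0.79 in DMSO and 4.29 in C646, while the FARSA and FARSB ratios over FARS2 lie lower on average in C646.

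The genes around the synthetases were taken from lists of tRNA metabolism. Each count of falls in these short lists stands beside 33.0% of all genes tested that were called lower. Of the 3 scaffold genes of the multi-synthetase complex, AIMP2 (log2 fold change of T > C reads −1.27, edgeR adjusted p = 0.000299) and EEF1E1 (−1.47) fell, and AIMP1 had a value of −0.23. Of 15 tested genes that trim or complete tRNA ends, among them the RNase P subunits, 8 fell and none rose, beside 33.0% of all genes tested called lower, with RPP25 at −3.15, the tRNase Z gene ELAC2 at −3.14 and POP1 at −2.21. With T > C reads scaled to themselves these 3 named genes kept their call and the other 5 lost it. Among 4 tested genes that edit mischarged tRNA 3 fell, but 1 did without C646 replicate 3 or without any 1 of the DMSO libraries, and 0 did with that scaling. The other one, DTD1, a D-aminoacyl-tRNA deacylase, was called lower in the odds of a T > C read (−1.73). It was called higher in all reads (2.20) and had a value of 0.64 in T > C reads, or 1.48 and a call with that scaling. Both tested peptidyl-tRNA hydrolase genes fell, 1 without C646 replicate 2 or DMSO replicate 2 or 3, and 0 with that scaling. Of the 3 genes of the mitochondrial glutamyl-tRNA amidotransferase, none was called in T > C reads. QRSL1 (−1.77) and GATC (−1.13) had lower odds of a T > C read, as did 38.3% of all genes tested. With each library left out in turn, this call of QRSL1 held in 6 fits and that of GATC in 3. GATB had a value of 1.32 in T > C reads (edgeR adjusted p = 0.0365) and of 1.26 in the odds, and was called higher with T > C reads scaled to themselves (2.14).

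In the tRNA splicing list, 2 of 4 tested genes fell (1 when any library but C646 replicate 1 was left out, and 0 with T > C reads scaled to themselves) and TSEN15, a subunit of the splicing endonuclease, rose by 4.25 on the log2 scale (SE 0.45), beside 33.0% of all genes tested called lower and 2.97% higher. TSEN15 had few T > C reads in DMSO, with 5, 1 and 5 against 53, 73 and 108 in C646. Its log2 odds ratio of 1.51 was not called (edgeR adjusted p = 0.0158). Of 4 tested factors that deliver aminoacyl-tRNA to the ribosome, EEF1G (−1.25) and the mitochondrial TUFM (−1.36) fell. TSFM, the exchange factor of TUFM, was called higher in all reads (1.48) and had a value of 0.57 in T > C reads, or 1.41 and a call with T > C reads scaled to themselves. It was called lower in the odds of a T > C read (−1.12), a call that held in 1 of the fits with a library left out. With T > C reads scaled to themselves, AIMP2, EEF1E1, EEF1G and TUFM had values of −0.43, −0.63, −0.40 and −0.51.

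Of 24 tested genes of the integrated stress response, 6 rose and 1 fell in T > C reads, with a median log2 fold change of 0.60, beside 2.97% of all genes tested called higher and 33.0% lower. With T > C reads scaled to themselves 14 rose, beside 9.14% of all genes tested. In the odds of a T > C read 2 were higher and 2 lower, with a median of −0.15, beside 0.79% and 38.3% of all genes tested and a median over them of −1.004, and PPP1R15A, which rose in T > C reads (1.37), had lower odds (−2.38). SLC7A11, a cystine transporter, rose by 2.97 and DDIT4, an inhibitor of mTORC1 signalling, by 2.82. EIF4EBP1, a repressor of cap-dependent translation, fell by 2.37. ATF4 itself had a log2 fold change of −0.84 (edgeR adjusted p = 3.75e-05), close to the median of all genes, and of 0.0018 with T > C reads scaled to themselves. ASNS, asparagine synthetase, had one of 0.58 (edgeR adjusted p = 0.043), and of 1.42 with that scaling.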

How the data were processed

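SLAM-seq libraries of MOLM-13 cells, 3 per group as labelled, were analysed. The authors used SLAM-Dunk 0.4.1 to align QuantSeq reads to GRCh38 and deposited raw counts, not normalized, of all reads, T > C reads, conversions and multimapped reads for 58136 3′ UTR entries. Also deposited were a signal, the coverage of T positions, and CPM, scaled by the authors' software to filtered reads, used here to recover those totals. The study counted reads with at least 2 conversions as new, while the deposited column also counts reads with 1, since between 457 and 641 entries of each library list 1 T > C read with 1 conversion.

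Counts were summed per gene (25310 of 25420 matched to a symbol) and fitted across all genes with edgeR 4.0.16 (filterByExpr, glmQLFit, glmQLFTest, Benjamini-Hochberg adjustment) in R 4.3.3. T > C reads were scaled to TMM-scaled totals of all reads. SE is the absolute log2 fold change over the square root of F. On simulated data, 92.9% of 98 falls and 99.0% of 100 rises of 2 on the log2 scale in T > C reads were recovered. In the odds of a T > C read, 74.5% of the falls and 86% of the rises were. The changed genes of these 2 runs had mean T > C reads above 19, the mitochondrial median in a library. Recovery at lower depth or for smaller changes was not simulated. Members and lists were chosen with earlier results of these data known, and any member could be named. Members called in T > C reads, all reads or odds and the 3 highest and 3 lowest of each class had priority. From the other lists at most 3 called genes each were named, and AIMP1, QRSL1, GATC, GATB, DTD1, TSFM, COL1A1, PECAM1, PPP1R15A, ATF4, ASNS and the delivery factors' values under another scaling were added after their values were seen. No member shares its 3′ UTR with another gene on the same strand, and at most 4.22% of a member's reads were multimapped. Alternatives were other scalings, filters, DESeq2 1.42.0, glmTreat, the 3′ UTR with the most reads, a replicate block and each library left out. Python 3.11.15, pandas 2.3.3, numpy 2.4.6 and matplotlib 3.10.9 made summaries and plots.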

Additional observations from a re-analysis of the deposited data

How the results depend on the processing

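Scaling by TMM on T > C reads gave 1 cytosolic gene lower and 3 higher in T > C reads (median 0.36) and 1 mitochondrial gene lower (median −0.39). DESeq2 with size factors of T > C reads gave 0 cytosolic genes lower and 3 higher (median 0.35) and 1 mitochondrial gene lower (median −0.39). Both scalings set the median of all genes near 0 by construction. Scaling by all filtered reads, which shifted all genes by 0.20, gave 1 cytosolic gene higher and a cytosolic median of −0.28 in T > C reads. In all reads it gave medians of −0.046 (cytosolic) and −0.0061 (mitochondrial) and 2 mitochondrial genes higher. Under a minimum mean of 50 T > C reads, 1 mitochondrial gene, RARS2, was left, and the cytosolic median was −0.37. For this class 0 were then called lower in T > C reads (median −0.68) and 0 in odds (median −0.18). The RARS2 entry with the most reads had 40, 33 and 28 T > C reads in DMSO and 7, 20 and 28 in C646. Its other T > C reads lay on smaller entries. At chr6:87518630-87518739 they were 13 of 16 reads in DMSO replicate 1 and 16 of 17 in C646 replicate 1. With glmTreat, which tests against the fold threshold itself, 2 cytosolic genes (FARSA and FARSB) and 1 mitochondrial gene were lower in T > C reads, and 0 cytosolic and 0 mitochondrial genes were higher in all reads. For all reads, 1 mitochondrial gene (MARS2) was lower with the DESeq2 test and without a filter. With the mean of log2 values in place of sums, the difference of the class ratio was 0.90 for T > C reads and 0.041 for all reads. The causes of these changes were not tested.

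The deviations of same-numbered libraries had correlations of 0.030, 0.044 and 0.065 in T > C reads and of −0.0014, 0.14 and 0.23 in all reads. Not every one was over 0.1, so the numbers were not taken to pair the libraries, although 2 of 3 were in all reads. A replicate block left 3 cytosolic and 7 mitochondrial genes lower in T > C reads, and gave 1 mitochondrial gene lower in all reads.

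With each library left out in turn, the cytosolic genes higher in T > C reads numbered 0 to 1, the cytosolic median ran from −0.59 to −0.48 and the mitochondrial median from −1.58 to −1.15. In all reads the cytosolic median ran from −0.35 to −0.18, and the cytosolic genes higher and the mitochondrial genes higher and lower each numbered 0 to 1. Mitochondrial genes lower in T > C odds numbered 3 to 7, with 3 without DMSO replicate 2. The mitochondrial genes had the lower depth, with a median of 19 T > C reads in a library against 76 for the cytosolic genes.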
